A study of Mus musculus with 12 samples.

Results

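STHdhQ7 and STHdhQ111 cells, the mouse striatal lines that carry wild-type and mutant huntingtin, were compared without treatment. The comparison covered the genes that reached 0.5 TPM, a transcript level scaled for transcript length and library depth, in at least 3 of the 6 nontreated libraries, which kept 14822 of the 29428 genes in the table. The same minimum over all 12 libraries of the series, which include both lines after 24 h with interferon-gamma and lipopolysaccharide (LPS), would have kept 16127 genes. Nontreated STHdhQ7 cells (Q7-C, labelled normal, homozygous for a 7-glutamine huntingtin) gave 3 poly(A) RNA libraries. Nontreated STHdhQ111 cells (Q111-C, labelled HD, for Huntington's disease, homozygous for a knocked-in stretch named for its 111 glutamines) also gave 3. Both lines are described as immortal striatal neuronal cells of the mouse, and both were grown in DMEM with 10% serum at 33 °C and used within 20 passages of purchase. Each genotype was represented by 1 line, so the huntingtin genotype and any other difference between the lines cannot be told apart. The question of the comparison was how transcripts differed between the lines at baseline, outside the arginine and interferon genes.

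Huntingtin is a large scaffold protein with roles in vesicle and axonal transport, in transcription through factors such as REST, and in the supply of brain-derived neurotrophic factor to the striatum. In Huntington's disease the CAG repeat in exon 1 is expanded, and the medium spiny neurons of the striatum are the most affected cells. The STHdh lines were derived from embryonic striatal tissue of wild-type and knock-in mice and immortalized with a temperature-sensitive SV40 large T antigen, so they divide at the permissive temperature and resemble progenitors more than mature neurons. The stretch by which the lines differ by design lies in the first exon of Htt, and is shown as the reference genome holds it. The printed bases cover GRCm38 chr5:34761907-34762008 on the plus strand, in the coding part of exon 1 of transcript Htt-201. The glutamine run lies at chr5:34761958-34761978, and its 7 glutamine codons (6 CAG and 1 CAA) stand in capitals.
Htt exon 1, from the start codon: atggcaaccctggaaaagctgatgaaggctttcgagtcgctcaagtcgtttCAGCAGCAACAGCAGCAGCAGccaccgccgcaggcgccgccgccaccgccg
The deposited gene table gives 1 level per gene and no reads over the repeat, so the repeat length itself was not measured here.

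Library totals ranged from 61993741 to 87459646 estimated counts in Q7-C and from 63140505 to 79265140 in Q111-C. Low counts fell on multiples of 4 more often than on the neighbouring even counts, by 1.449 to 1.788 times, so many were not multiples of 4. If a read pair gave 4 counts, the libraries would hold about 15498435 to 21864912 read pairs. Q7-C replicate 1 stood apart from its group. On log2(TPM + 0.5), its distance to the other Q7-C libraries was 82.88 and 94.92. The distance was 38.9 between those other Q7-C libraries and 36.7 to 43.1 within Q111-C. The distances between lines were 114.5 to 147.6. The median TPM of Q7-C replicate 1 over the genes compared was 6.58, against 9.62 to 11.4 in the other 5 libraries. Where a count over a list moved by over 1.5 times and by more than 1 gene without this library, both counts are therefore given. Of the genes named as called, Atf5, Ebp, Gm10925, Myc, Prrx2, Rpl26, Slc2a1, Srf, Tm7sf2 and mt-Atp6 were not called without it. The study calls the replicates biological, but nothing in the labels says that they came from separate cultures. The p-values therefore measure the spread between these libraries.

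A gene was called differentially expressed (DEG) when edgeR's quasi-likelihood test gave a Benjamini-Hochberg adjusted p below 0.05 and the change was at least 2-fold. Between Q111-C and Q7-C, 2418 genes (16.3%) were DEGs, of which 1227 (8.28% of genes tested) were upregulated and 1191 (8.04%) downregulated. The count at adjusted p below 0.05 with no minimum fold was 4455. Of the DEGs, 1256 changed at least 4-fold, 694 up and 562 down, and 1836 were called in each of the 6 fits that left out 1 library. Through one line alone, with no library of the other at 0.5 TPM, 449 of the upregulated and 284 of the downregulated genes entered the comparison, and these could hardly come out otherwise. In 2354 DEGs (97.4%) the 3 libraries of one line lay above all 3 of the other in TPM, while this held for 53.1% of all genes tested. That background was lopsided, with 5992 genes higher in all Q111-C libraries and 1876 higher in all Q7-C libraries, because the TPM scale and the count scale are centred differently. The median log2 fold change over all genes was -0.01 after TMM scaling of the counts and 0.29 on log2(TPM + 0.5), and limma on the latter called 1585 genes up and 769 down. A list's or pathway's count of 5 or more downregulated genes is therefore given on both scales where it differed by more than 1.5 times.

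**Figure D1:**
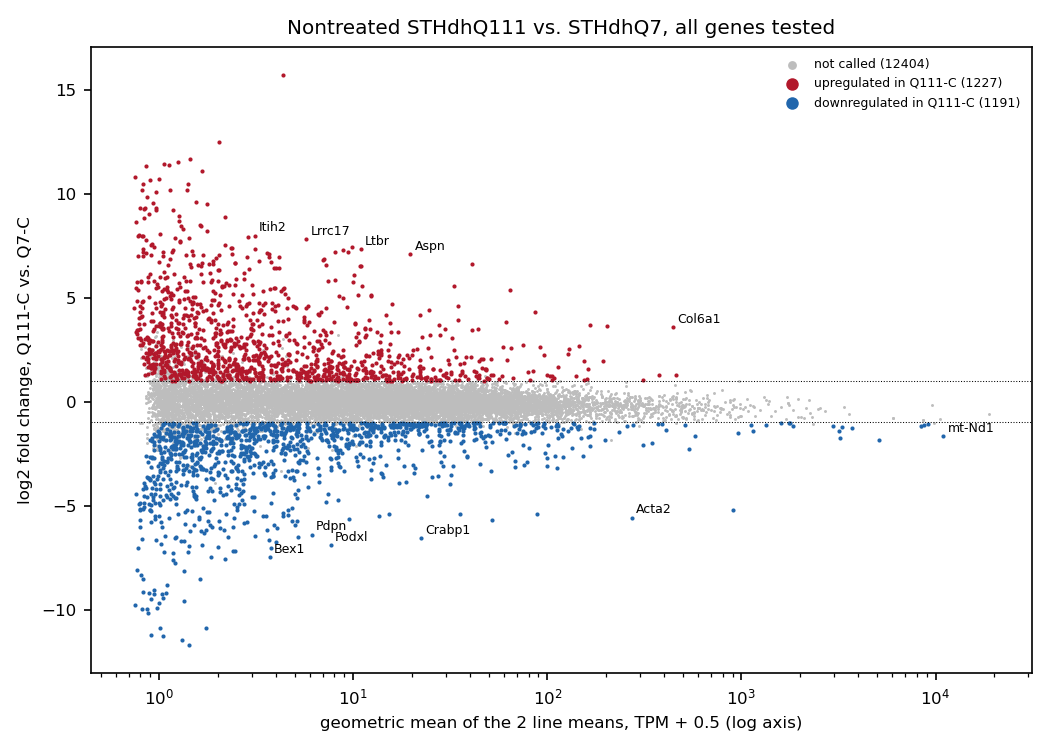
Log2 fold change of Q111-C vs. Q7-C (y axis, edgeR fit) against the geometric mean of both line means in TPM + 0.5 (x axis, log scale) for each of the 14822 genes, with the 1227 upregulated genes in red, the 1191 downregulated genes in blue and dotted lines at 2-fold. Changes reached beyond 6 log2 units in both directions. For genes at the floor in one line the fitted value plotted here depends on the fit and is no bound.

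The treated cells of both lines gave a comparison that shares no library with this one, although the lines are the same. There, 3068 of the 14822 genes (20.7%) were DEGs between Q111-T and Q7-T. Of the 1227 genes upregulated in Q111-C, 1161 (94.6%) had the same sign between the treated lines and 833 (67.9%) were called upregulated, while 5 were called downregulated. Of the 1191 downregulated genes, 1102 (92.5%) had the same sign, 710 (59.6%) were called downregulated and 19 were called upregulated.

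Htt itself (GRCm38 chr5:34761740-34912534, plus strand) measured 1.79, 4.34 and 5.11 TPM in Q7-C and 1.54, 2.07 and 1.91 TPM in Q111-C. The Q111-C level was lower (log2 fold change -1.27, SE 0.268, adjusted p = 0.0113), although Q7-C replicate 1 lay within the range of Q111-C. Leaving out 1 library at a time moved the log2 fold change between -1.53 and -1.07, with a largest adjusted p of 0.0542, and without Q7-C replicate 1 it was -1.53 (edgeR, adjusted p = 9.58e-06). Of the 21 tested genes in a list of huntingtin and its partners, 3 were downregulated and none upregulated (14.3% DEGs against 16.3% of all genes). The other members called were Hap1, which encodes huntingtin-associated protein 1, a transport adaptor, and Tgm2, the transglutaminase that cross-links glutamine residues. Hap1 was at 6.88, 9.94 and 10.2 TPM in Q7-C and 3.67, 4.93 and 4.4 TPM in Q111-C (log2 fold change -1.34, SE 0.149, adjusted p = 0.000675), but it was called higher in Q111 between the treated lines (log2 fold change 1.78, adjusted p = 0.0133). Tgm2 was at 2.49, 3.01 and 3.97 TPM in Q7-C and 1.06, 0.953 and 0.927 TPM in Q111-C (log2 fold change -1.97, SE 0.195, adjusted p = 0.000406). For both genes every Q7-C library lay above every Q111-C library. The median of the list was -0.23, and 0.09 on log2(TPM + 0.5), where 1 member (Tgm2) was called.

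Neurotrophic factors and their receptors differed between the lines, mostly downward. Of 11 tested, 6 (54.5%) were downregulated and Lif (9.09%) was upregulated, with a median log2 fold change of -1.45. The GDNF-family ligands fell most. Artn, which encodes artemin, measured 17.3, 20.2 and 17.8 TPM in Q7-C and 1.86, 1.27 and 0.826 TPM in Q111-C (log2 fold change -4.10, SE 0.329, adjusted p = 0.000165). Gdnf was at 12.2, 18.3 and 21.4 TPM in Q7-C and 2.90, 3.87 and 2.89 TPM in Q111-C (log2 fold change -2.71, SE 0.173, adjusted p = 6.45e-05). The lines did not overlap for either ligand, and Gfra1, which encodes the GDNF co-receptor, fell with them (log2 fold change -1.45, not called on log2(TPM + 0.5)). Sort1, the sortilin receptor that binds pro-neurotrophins, was at 3.68, 6.72 and 6.57 TPM in Q7-C and 0.999, 1.03 and 1.29 TPM in Q111-C (log2 fold change -2.62, SE 0.189, adjusted p = 0.000107). Cntf (-1.73) and Lifr (-1.88), a ligand and a receptor of the interleukin-6 family, were also downregulated, whereas Lif, another ligand of that receptor, rose (1.46). Bdnf was higher in every Q111-C library, at 4.69, 6.75 and 8.14 TPM in Q7-C and 14.8, 16.3 and 15.5 TPM in Q111-C, and passed the adjusted p but not the 2-fold minimum (log2 fold change 0.97, SE 0.125, adjusted p = 0.00127). Without Q7-C replicate 1 the number of upregulated members went from 1 to 3, and the number of downregulated members was again 6.

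The label of a striatal neuronal line was checked against markers. Gad1 and Gad2, which make the transmitter GABA in medium spiny neurons, were listed at 0 in all 6 libraries, and Bcl11b, Dcx, Elavl3, Snap25 and Syt1 were near 0. Of 48 medium spiny neuron genes named, 40 were in the table, 5 of them at 0 in every library and 23 under 0.5 TPM in every library. Among the 15 that were tested, 5 were upregulated, 4 of them tested through Q111-C alone, and 3 downregulated. Rgs4, a regulator of G-protein signalling, was at 0.149, 0.104 and 0 TPM in Q7-C and 12.7, 12.4 and 14.9 TPM in Q111-C (log2 fold change 6.96, SE 0.790, adjusted p = 0.000734). Penk, which encodes the enkephalin precursor, was at 0, 0.429 and 0 TPM in Q7-C and 4.01, 5.42 and 5.34 TPM in Q111-C (log2 fold change 4.88, SE 1.16, adjusted p = 0.0184), and its call was lost when some single libraries were left out (largest adjusted p 0.0653). Ppp1r1b, which encodes DARPP-32, was low, at 0.385, 0.319 and 0.204 TPM in Q7-C and 1.00, 1.05 and 1.30 TPM in Q111-C (log2 fold change 1.52, SE 0.396, adjusted p = 0.0259), and its call was kept in 1 of the 6 fits that left out a library. Sp8, a factor of striatal interneuron and progenitor development, was lower at 7.21, 9.44 and 8.10 TPM in Q7-C and 1.64, 2.11 and 1.51 TPM in Q111-C (log2 fold change -2.54, SE 0.185, adjusted p = 0.00011), and Meis2 (-1.48) and Pde1b (-1.47) fell too. The median over those tested was 0.03.

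Of 10 neuron markers tested, 3 rose, all tested through Q111-C alone, and 3 fell, and those that fell were genes of the neuronal cytoskeleton and of vesicles. The summed level of the neuron marker list was 105 to 118 TPM in Q7-C and 22 to 28 TPM in Q111-C. Stmn2, which encodes a microtubule regulator of growth cones, accounted for most of that sum in Q7-C, at 72.1, 79.0 and 69.6 TPM in Q7-C and 2.18, 2.69 and 1.14 TPM in Q111-C (log2 fold change -5.52, SE 0.360, adjusted p = 7.04e-05). Tubb3, the neuronal beta-tubulin, was at 17.8, 16.2 and 16.8 TPM in Q7-C and 4.29, 4.88 and 2.56 TPM in Q111-C (log2 fold change -2.45, SE 0.295, adjusted p = 0.00095). Syn1, a synaptic vesicle protein, was at 3.63, 4.12 and 5.58 TPM in Q7-C and 0.309, 0.458 and 0.625 TPM in Q111-C (log2 fold change -3.53, SE 0.295, adjusted p = 0.000197). The lines were apart for all of these genes. In the other direction, the vesicular glutamate transporter Slc17a7 rose (2.50). Slc17a6 was at 0, 0 and 0.0340 TPM in Q7-C and 0.849, 1.32 and 1.07 TPM in Q111-C. For Slc17a6 this was at least 15.2-fold against the floor of 12 estimated counts per library (about 3 read pairs, if a pair gave 4 counts). Map2 did not reach 2-fold (-0.68).

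Progenitor markers were mostly lower. Of 7 tested, 4 (57.1%) were downregulated, 1 of them tested through Q7-C alone. Fabp7 was upregulated (1.57), a call kept in 1 of the 6 fits that left out a library. Nes, the intermediate filament of neural stem cells, was at 36.6, 57.8 and 69.4 TPM in Q7-C and 7.52, 6.84 and 7.56 TPM in Q111-C (log2 fold change -3.17, SE 0.152, adjusted p = 2.31e-05). Sox2, a stem cell transcription factor, was at 33.9, 44.6 and 48.8 TPM in Q7-C and 5.41, 4.02 and 3.14 TPM in Q111-C (log2 fold change -3.63, SE 0.228, adjusted p = 6.18e-05). Pax6, a factor of cortical and dorsal progenitors, was at 4.55, 7.73 and 8.62 TPM in Q7-C and 0.149, 0.201 and 0 TPM in Q111-C (log2 fold change -6.15, SE 0.949, adjusted p = 0.00287). No Q111-C library reached a Q7-C library for these genes. Msi1 fell less (-1.31), and Vim did not pass (-0.33). Markers of other cell types were a mixture. Of 7 astrocyte genes tested, 3 rose, among them Slc1a3 (3.19), a glutamate transporter, and Sox9 at 1.60, 1.52 and 2.02 TPM in Q7-C and 17.2, 23.4 and 18.8 TPM in Q111-C (log2 fold change 3.21, SE 0.192, adjusted p = 5.03e-05). Gfap, Aqp4, Mbp, Ptprc and Cdh5, which define astrocytes, oligodendrocytes, blood-derived cells and endothelium, were at or near 0 in both lines. Of 5 epithelial genes tested, 1 rose and 3 fell, of 3 oligodendrocyte genes 1 rose, of 2 endothelial genes 1 fell, and of 3 microglial genes none was called. Of 16 mesenchymal genes tested, 7 (43.8%) rose, Col1a2 (3.82) by the most, and 3 (18.8%) fell. Those that fell were Acta2 (-5.57), Tagln (-5.42) and Cnn1 (-1.25). The oligodendrocyte gene that rose was Pdgfra, a growth factor receptor of fibroblasts and oligodendrocyte precursors. Pdgfra was at 0.547, 0.821 and 0.751 TPM in Q7-C and 17, 21.7 and 22.3 TPM in Q111-C (log2 fold change 4.55, SE 0.154, adjusted p = 7.88e-06). In bulk RNA, fewer cells of a type and less RNA per cell cannot be told apart, and the part that any mixture of cells had in the results was not tested.

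**Figure D2:**
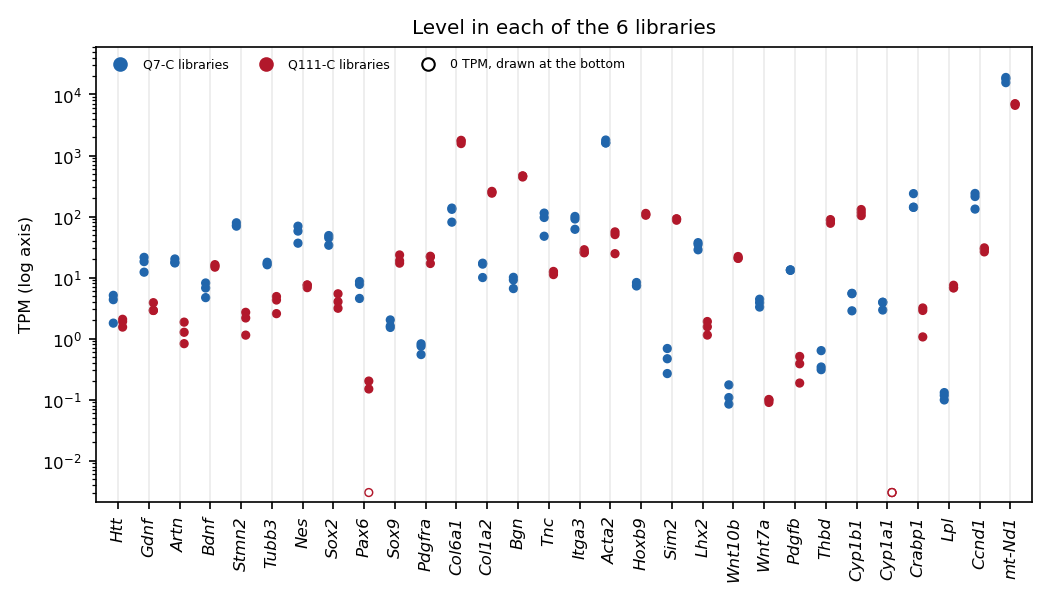
TPM (y axis, log scale) of genes described in the text, with 1 point for each of the 3 Q7-C libraries (blue) and 3 Q111-C libraries (red), and open points at the bottom for a value of 0. For Htt the lowest Q7-C point, at 1.79 TPM, falls among the Q111-C points, and for the other genes shown the points of the lines do not overlap.

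Among DEGs reaching a mean of 10 TPM in one line, the 10 with the largest change in each direction were examined. Left out were Gm and Rik names, genes overlapping another on the same strand and genes whose libraries overlapped between lines. Upward, Itih2, a heavy chain that links hyaluronan, led with 0.153, 0 and 0 TPM in Q7-C and 14.5, 18.3 and 18.8 TPM in Q111-C (log2 fold change 7.99, SE 1.01, adjusted p = 0.00116). Acan, the proteoglycan aggrecan (7.90), Lrrc17, a secreted leucine-rich protein (7.82), and Aspn, the small proteoglycan asporin (7.10), are secreted matrix proteins too. Ltbr, the lymphotoxin beta receptor, was at 0.577, 0.723 and 0.342 TPM in Q7-C and 119, 110.1 and 112 TPM in Q111-C (log2 fold change 7.36, SE 0.330, adjusted p = 1.86e-05). Thbd, which encodes the anticoagulant receptor thrombomodulin (7.32), the transcription factors Sim2 (7.20) and Hic1 (7.15), the ligand Wnt10b (7.11) and Xlr (7.19), whose reads may be split within its multicopy family, completed the 10. Downward, Bex1, an X-linked adaptor named for its expression in brain, was at 26.5, 17.4 and 19.8 TPM in Q7-C and 0, 0.331 and 0.0873 TPM in Q111-C (log2 fold change -7.46, SE 0.793, adjusted p = 0.000556). Kcnip1, a potassium channel-interacting calcium sensor (-7.03), and Podxl (-6.89), Pdpn (-6.39) and Cadm1 (-6.44), all surface glycoproteins, followed. The others were the homeobox factor Cdx2 (-6.74), the retinoic acid-binding protein Crabp1 (-6.57), the developmental factor Dmrta2 (-6.19), Renbp (-5.92) and the formin Fmnl1 (-5.91).

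At the floor in one line stood 159 upregulated DEGs, undetected in Q7-C, and 102 downregulated DEGs, undetected in Q111-C. By level in the other line, Srpx2, a secreted sushi-repeat protein, was one of the 5 highest that rose, at 0, 0 and 0.0376 TPM in Q7-C and 7.78, 9.46 and 9.10 TPM in Q111-C, at least 66.9-fold higher. Pctp, a phosphatidylcholine transfer protein, was at least 55.1-fold higher. The unnamed genes Gm20716 (at least 512-fold) and Gm14719 (11.9-fold) and the microRNA locus Mir196a-1 (3.67-fold) also met the rule, and Gm20716 overlaps other genes, so its reads may be theirs. In the opposite direction Cbln1, a synapse-organizing cerebellin, was at 7.36, 8.07 and 8.73 TPM in Q7-C and 0.126, 0.0376 and 0 TPM in Q111-C, at least 87.2-fold lower. Dmrta2os, the antisense partner of Dmrta2, was at least 25.3-fold lower, as were the histone gene H2bu2 (18.7-fold), Sprr2k (16.8-fold) and the Y-linked Gm21742 (14.1-fold), which belongs to a family of near-identical copies.

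The most abundant DEGs differed in kind between directions. The 5 highest that were upregulated were the collagen chains Col6a1, Col1a1 and Col6a2, fibronectin (Fn1) and Lgals3, the lectin galectin-3, at 56.8, 51.5 and 42.2 TPM in Q7-C and 824, 813 and 779 TPM in Q111-C (log2 fold change 3.66, SE 0.242, adjusted p = 7.44e-05). Bgn, the proteoglycan biglycan, was at 9.14, 10.1 and 6.60 TPM in Q7-C and 445, 460.2 and 464 TPM in Q111-C (log2 fold change 5.39, SE 0.266, adjusted p = 2.45e-05). The 5 highest that were downregulated were mt-Nd1, mt-Atp6, mt-Cytb and mt-Nd2, which mitochondrial DNA encodes, and Gm10925. The mitochondrial set of 13 protein-coding genes summed to 109800 to 124200 TPM in Q7-C and 66700 to 71840 TPM in Q111-C, and 9 of the 13 (69.2%) were downregulated, with a median of -1.17. Complex I subunits fell most, with mt-Nd3 at -2.07, mt-Nd2 at -1.82, mt-Nd6 at -1.76 (called in 4 of the 6 fits that left out a library) and mt-Nd1 at -1.65. mt-Nd1 measured 15643, 18991 and 17947 TPM in Q7-C and 7041, 6641 and 6988 TPM in Q111-C. The groups were far apart for this gene. mt-Cytb (-1.17) and mt-Atp6 (-1.12) also passed, while mt-Co1 (-0.61), mt-Co2 (-0.88), mt-Co3 (-0.79) and mt-Atp8 (-0.82) did not reach 2-fold. Gm10925, a nuclear sequence that resembles mt-Atp6, fell by a like amount (-1.10) and may share its reads. On log2(TPM + 0.5) 4 of the 13 were called downregulated, and mt-Atp6 was not called without Q7-C replicate 1. Of 105 nuclear genes of oxidative phosphorylation, 1 rose (Ndufs5) and 4 fell, with a median of -0.22. Of 24 genes of mitochondrial dynamics and biogenesis 1 was called.

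Among the collagens and matrix proteins, 19 of 43 tested (44.2%) were upregulated and 4 (9.30%) downregulated, against 8.28% and 8.04% of all genes. Of the 19, 3 were tested through Q111-C alone. The summed level of the list was 1975 to 3216 TPM in Q7-C and 7158 to 8048 TPM in Q111-C. The chains of collagen VI, a microfibrillar collagen, contributed most in Q111-C. In Q7-C the highest member was Sparc, at a mean of 693.4 TPM. Col6a1 (GRCm38 chr10:76708792-76726168, minus strand) was at 80.9, 137 and 131 TPM in Q7-C and 1571, 1771 and 1721 TPM in Q111-C (log2 fold change 3.58, SE 0.127, adjusted p = 1.01e-05). Col6a2 (3.70) and Col6a3 (2.54) rose with it. Among fibrillar chains Col1a2 was at 10.0, 16.6 and 17.2 TPM in Q7-C and 241, 258 and 251 TPM in Q111-C (log2 fold change 3.82, SE 0.127, adjusted p = 7.36e-06), and Col1a1 (1.26), Col3a1 (2.02) and Col5a2 (2.30) were upregulated as well. Fibrillin-2 (Fbn2, 7.54) and Col15a1 (5.73), at means of 0.0362 and 0.0819 TPM in Q7-C, were tested through Q111-C alone. The cross-linking enzyme Lox (2.22), Emilin1 (2.63), decorin (Dcn, 2.61) and fibronectin (Fn1, 1.31) were further members that rose. Downregulated were tenascin-C (Tnc, -3.09), which developing brain makes, the basement membrane chains Col4a6 (-2.31) and Col18a1 (-1.80), and Col8a1 (-1.87). Without Q7-C replicate 1, the downregulated members numbered 7 in place of 4. The KEGG pathway of protein digestion, whose genes called here include collagen chains, had 13 up and 5 down of 38, and ECM-receptor interaction, which joins matrix and integrins, had 12 up and 10 down of 49.

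The promoters of the collagen VI gene Col6a1 and of Itih2, the first of the 10 ranked upregulated genes, are shown. They were chosen because both hold the letters TGACTCA, the site bound by AP-1 factors, whose early-response genes are described further on. The 250 bases before the RefSeq start were read for each on GRCm38.p6, in the direction of the gene, with TGACTCA in capitals. Col6a1 lies at chr10:76726045-76726294 and Itih2 at chr2:10130684-10130933, both on the minus strand.
Col6a1 promoter: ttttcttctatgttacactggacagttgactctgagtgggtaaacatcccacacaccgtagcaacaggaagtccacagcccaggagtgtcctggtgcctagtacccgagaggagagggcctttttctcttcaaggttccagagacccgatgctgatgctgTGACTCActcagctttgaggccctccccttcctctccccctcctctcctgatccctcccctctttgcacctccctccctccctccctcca
Itih2 promoter: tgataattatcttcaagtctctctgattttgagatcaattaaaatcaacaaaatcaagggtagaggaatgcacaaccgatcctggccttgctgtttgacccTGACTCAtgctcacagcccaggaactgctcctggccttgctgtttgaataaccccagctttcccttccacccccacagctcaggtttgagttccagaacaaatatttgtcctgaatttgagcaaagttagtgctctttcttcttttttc
The match lies 90 bases before the start in Col6a1 and 149 bases before it in Itih2. TGACTCA was searched on both strands and occurs in 5.20% of the 32851 RefSeq promoters of 300 bases and in 3.48% of the 10010 that belong to genes compared here. A match is a description of these letters and not of binding.

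Integrins and laminins, the receptors and basement membrane proteins that bind this matrix, were more often lower. Of 26 tested, 8 (30.8%) were downregulated and 2 (7.69%) upregulated, of which 2 and 1 were tested through the higher line alone. Itgb4, the beta subunit of hemidesmosomes, was at 5.14, 6.71 and 6.72 TPM in Q7-C and 0.413, 0.542 and 0.323 TPM in Q111-C (log2 fold change -4.15, SE 0.221, adjusted p = 3.23e-05). The laminin-binding alpha subunits Itga7 (-3.69), Itga3 (-1.94) and Itga6 (-1.68) fell, as did the leukocyte subunit Itgb2 (-3.07) and Lama5 (-1.54). The 2 that rose were Itgb7, at 1.53, 1.68 and 1.69 TPM in Q7-C and 30.9, 27.0 and 29.7 TPM in Q111-C (log2 fold change 3.83, SE 0.163, adjusted p = 1.75e-05), and Lama4 (6.14). Among matrix proteases and their inhibitors, 7 of 26 (26.9%) rose and 5 (19.2%) fell, against 8.28% and 8.04% of all genes. Of the 5 that fell, 2 were tested through Q7-C alone. Mmp2 (2.04), a gelatinase, and the surface proteases Adam19 (3.64) and Adam8 (2.23) were higher, while Adam12 (-5.10) and Adamts12 (-3.41) were lower. Timp3, a matrix-bound inhibitor of these enzymes, was at 178, 319 and 329 TPM in Q7-C and 48.5, 55.8 and 51.5 TPM in Q111-C (log2 fold change -2.68, SE 0.144, adjusted p = 3.32e-05).

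Of 14 cadherins, 7 were downregulated and 2 upregulated, of which 3 and 1 were tested through the higher line alone. Cdh2, the neural cadherin, was at 26.4, 53.5 and 66.3 TPM in Q7-C and 14.8, 15.5 and 15.6 TPM in Q111-C (log2 fold change -1.92, SE 0.213, adjusted p = 0.000674). Cdh22 was at 1.60, 1.54 and 1.42 TPM in Q7-C and 0, 0 and 0 TPM in Q111-C, at least 20.4-fold lower, and the protocadherin Pcdh7 (-2.85) and Celsr2 (-5.20) fell. In the KEGG pathway of cell adhesion molecules, 15 of 62 genes rose and 18 fell (14 and 12 on log2(TPM + 0.5)). Selp, the adhesion receptor P-selectin, was at 0.115, 0.207 and 0.143 TPM in Q7-C and 19.3, 20.7 and 23.0 TPM in Q111-C (log2 fold change 6.73, SE 0.197, adjusted p = 5.61e-06). Cd34, a surface sialomucin, was at 59.8, 91.8 and 97.6 TPM in Q7-C and 8.46, 9.39 and 7.61 TPM in Q111-C (log2 fold change -3.57, SE 0.131, adjusted p = 1.06e-05). For each of these genes the 3 libraries of one line lay clear of the other 3. Of 25 targets and partners of YAP and of serum response factor, 7 (28.0%) were downregulated, none was upregulated and 18 were not called. Among the 7, 1 was tested through Q7-C alone. Acta2, the smooth muscle actin, was at 1605, 1612 and 1792 TPM in Q7-C and 50.6, 56.0 and 24.6 TPM in Q111-C (log2 fold change -5.57, SE 0.359, adjusted p = 6.74e-05). The contractile genes Tagln (-5.42) and Myl9 (-4.52), and Srf itself (-1.01), moved the same way, and Ccn2, a secreted YAP target, was at -1.52, while Tpm1 (-0.91), Tpm2 (-0.74) and Vcl (0.62) did not pass. On log2(TPM + 0.5) 4 of the 25 were downregulated and 1 upregulated, and without Q7-C replicate 1 the count was 5 down. KEGG focal adhesion (17 up, 28 down of 154), regulation of actin cytoskeleton (12 up, 23 down of 159) and tight junction (9 up, 16 down of 117) also held more downregulated than upregulated genes. This did not hold on log2(TPM + 0.5) for focal adhesion (19 up, 18 down) or tight junction (10 up, 7 down), and regulation of actin cytoskeleton had 13 up and 16 down.

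**Figure D3:**
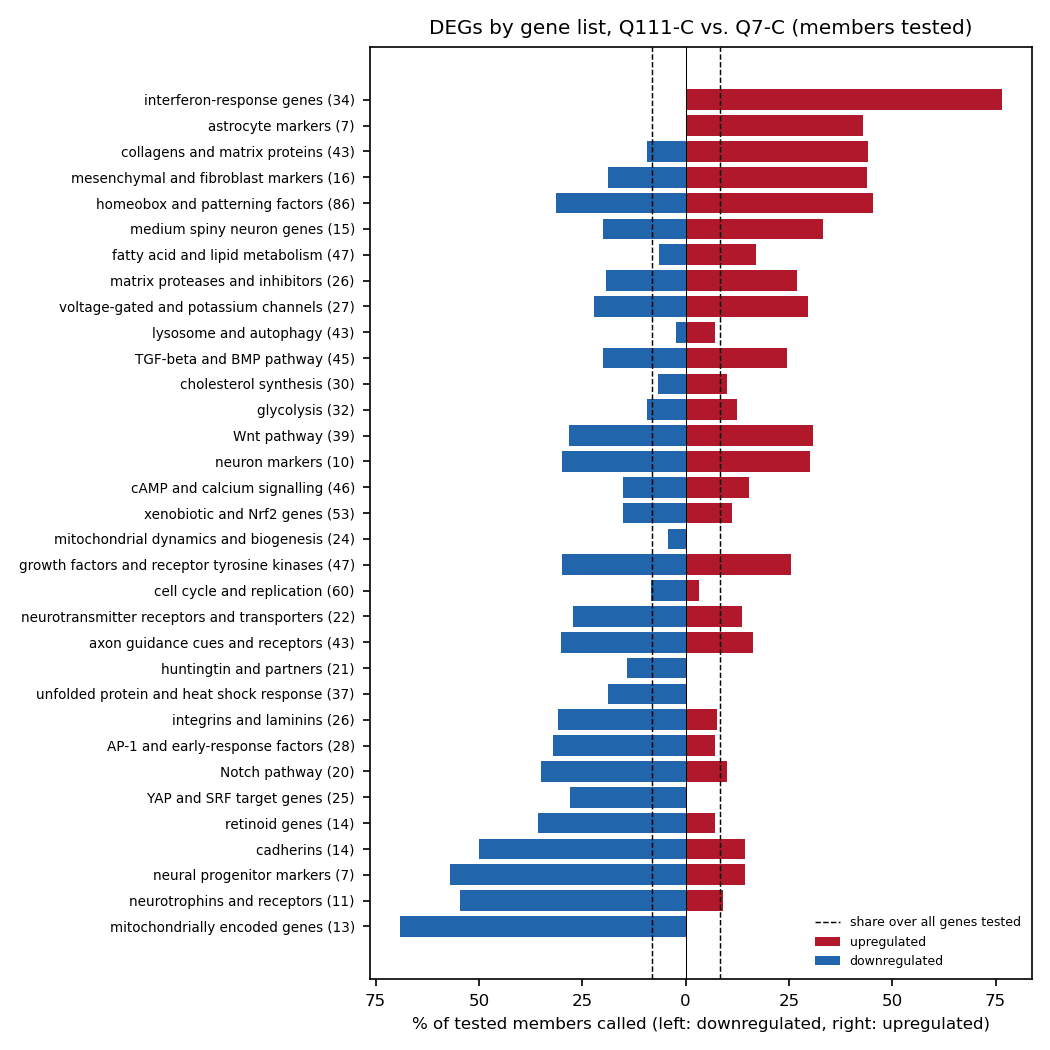
Percent of the tested members of each gene list with at least 7 of them that were downregulated (blue bars, to the left) or upregulated (red bars, to the right) in Q111-C vs. Q7-C, with the number tested in parentheses and dashed lines at the shares over all genes, 8.04% and 8.28%. Mitochondrially encoded genes, neurotrophins and progenitor markers reach farthest to the left, and, after the interferon-response genes, patterning factors, matrix proteins and mesenchymal markers reach farthest to the right. The shares include members tested through the higher line alone.

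Patterning factors, the transcription factors that assign position and lineage in the embryo, differed in both directions. Of 86 tested, 39 (45.3%) were upregulated and 27 (31.4%) downregulated, of which 17 and 10 met the minimum of 0.5 TPM through the higher line alone. Hox genes, which mark positions from hindbrain to tail and are silent in the embryonic forebrain, were tested in 17 cases of 34 named, and 16 were upregulated. Of those 16, 10 met the minimum of 0.5 TPM through Q111-C alone, so that the filter fixed their direction. The 9 Hoxb genes, 6 of which reached the minimum in a library of each line, rose by 2.57 to 4.51 log2 units (median 3.50). Hoxb9 (GRCm38 chr11:96271457-96276595, plus strand) was at 7.28, 7.48 and 8.29 TPM in Q7-C and 105, 108 and 112 TPM in Q111-C (log2 fold change 3.50, SE 0.141, adjusted p = 1.42e-05). Hoxb7 (3.35) and Hoxb6 (3.29) were alike. The 7 Hoxa genes tested met the minimum through Q111-C alone, and they are given as levels. Hoxa2 was at 0.116, 0.179 and 0.0517 TPM in Q7-C and 7.94, 7.06 and 7.42 TPM in Q111-C, at least 34.7-fold higher, and Hoxa3 was at least 27.2-fold and Hoxa5 at least 14.6-fold higher, since Q7-C lay at the floor for each. Hoxc6, the tested gene of the Hoxc cluster, was not called (-0.35). No tested Hoxa gene was above 0.244 TPM (Hoxa7) in a Q7-C library, whereas Hoxb6, Hoxb7, Hoxb8 and Hoxb9 had 1.66 to 8.29 TPM there.

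Outside the Hox clusters, 23 of 69 factors rose and 27 fell. Factors that rose included Sim2, at 0.687, 0.467 and 0.267 TPM in Q7-C and 87.0, 91.5 and 91.4 TPM in Q111-C (log2 fold change 7.20, SE 0.464, adjusted p = 6.73e-05), and Zic1, at 0.0895, 0.0555 and 0.0161 TPM in Q7-C and 8.74, 10.3 and 9.96 TPM in Q111-C (log2 fold change 7.12, SE 0.540, adjusted p = 0.00013). Zic4 was at least 17.3-fold higher. Eya4 (4.56), Pax9 (5.44), Irx3 (3.76), Gata4 (3.25) and Tbx15 (2.03) rose, and so did the mesenchymal factors Snai2 (2.16), Foxc1 (1.51) and Twist1 (1.13, called in 1 of the 6 fits that left out a library), while Zeb2 (-1.76), Runx2 (-1.84) and Prrx2 (-1.14), which mesenchyme also uses, fell and Twist2 and Zeb1 were not called. Those that fell included factors of the telencephalon. Lhx2, a selector of cortical and retinal fate, was at 28.5, 34.9 and 37.3 TPM in Q7-C and 1.56, 1.90 and 1.14 TPM in Q111-C (log2 fold change -4.75, SE 0.211, adjusted p = 1.86e-05). Otx1 (-3.59) and Emx2 (-1.42), also factors of the forebrain, fell, as did Sox11 (-6.15), a factor of young neurons. Sall1 (-7.16), Pax2 (-5.49), Gli2 (-3.37) and Shox2 (-2.85) were lower, and Nkx2-5 and Lhx1 were at the floor in Q111-C, at least 43.1-fold and 64.6-fold lower. Between the treated lines, 33 of the 39 upregulated and 20 of the 27 downregulated patterning factors were called in the same direction.

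**Figure D4:**
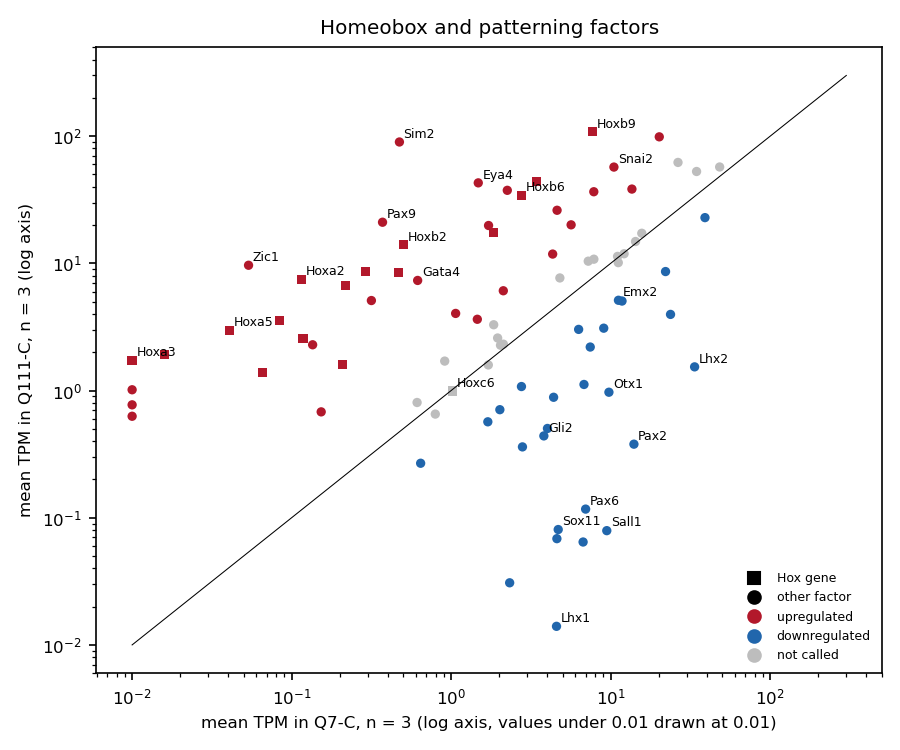
Mean TPM in Q111-C (y axis) against mean TPM in Q7-C (x axis), both on log scales and over 3 libraries each, for the 86 patterning factors tested. Squares are Hox genes, and the colours give upregulated (red), downregulated (blue) and not called (grey). The 16 called Hox genes lie above the line of equal level, and the other factors lie on both sides of it.

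Ligands of the Wnt pathway, which signals through Frizzled receptors and beta-catenin, changed in both directions. Of 13 named, 11 were tested, and 6 were upregulated and 5 downregulated, but 8 of the 11 met the minimum of 0.5 TPM through the higher line alone and so had to differ. Wnt10b, one of these 8, was at 0.0844, 0.174 and 0.108 TPM in Q7-C and 20.8, 22.1 and 20.6 TPM in Q111-C (log2 fold change 7.11). Wnt10a rose by a similar amount (log2 fold change 6.53, SE 0.290, adjusted p = 1.86e-05). Wnt6 (6.19) rose with its relatives. Wnt4, another of the 8, was at 11.8, 7.79 and 9.74 TPM in Q7-C and 0.112, 0.150 and 0 TPM in Q111-C (log2 fold change -7.17). Wnt7a, a ligand of the developing brain, was at least 44.1-fold lower. Of 8 Frizzled receptors, 1 rose and 1 fell. Among modulators, the R-spondin Rspo3 was at least 14.5-fold higher and the inhibitor Sfrp1 (-3.29) and the palmitoyltransferase Porcn (-2.91), which every Wnt needs for secretion, were lower. The whole list counted 12 up and 11 down of 39, of which 8 and 6 were tested through the higher line alone. KEGG pathways that hold many of these genes leaned downward, with 15 up and 21 down of 117 for Wnt signalling (14 up and 13 down on log2(TPM + 0.5), with no such lean), 8 and 12 of 47 for basal cell carcinoma, 12 and 20 of 121 for Hippo signalling (12 and 14 on that scale) and 12 and 23 of 106 for pluripotency of stem cells.

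TGF-beta and BMP genes were also split, with 11 up and 9 down of 45 and a median of 0.01. Among those called, 2 and 3 were tested through the higher line alone. Of the ligands, Bmp4 was at 22.5, 20.3 and 22.7 TPM in Q7-C and 3.91, 6.08 and 4.13 TPM in Q111-C (log2 fold change -2.54, SE 0.238, adjusted p = 0.000323), while Bmp7 rose (4.75) and the activin subunit Inhbb fell (-3.54). The receptors Tgfbr3 (3.20) and Tgfbr2 (1.79) rose. Fstl3, an activin-binding inhibitor, was higher (4.64), and the BMP antagonist Chrdl1 was lower (-4.68). Id4, a BMP target that restrains differentiation, was at 16.2, 20.4 and 20.9 TPM in Q7-C and 0.731, 0.953 and 0.380 TPM in Q111-C (log2 fold change -5.10, SE 0.333, adjusted p = 7.04e-05). In the Notch pathway 7 of 20 genes fell and 2 rose, of which 2 and 2 were tested through the higher line alone. Nrarp, a feedback target of Notch, was at 16.7, 21.1 and 17.6 TPM in Q7-C and 0.368, 0.739 and 0.378 TPM in Q111-C (log2 fold change -5.51, SE 0.314, adjusted p = 3.97e-05). Hey1 (-4.16), Dtx4 (-2.33) and Lfng (-1.64) also fell, whereas the receptor Notch4 rose (4.44) and Heyl was at least 17.6-fold higher. On log2(TPM + 0.5), 4 of the 20 Notch genes were downregulated, against 7 in the main fit. Of growth factors and receptor tyrosine kinases, 12 of 47 rose and 14 fell, of which 1 and 2 were tested through the higher line alone. Pdgfb, a ligand, was at 13.3, 13.1 and 13.4 TPM in Q7-C and 0.509, 0.387 and 0.187 TPM in Q111-C (log2 fold change -5.50, SE 0.393, adjusted p = 0.000104), opposite to the receptor Pdgfra. Fgf7 (4.18), Vegfd (3.20), Igfbp6 (2.62), Ptn (2.06) and the collagen receptor Ddr2 (4.96) were higher, and the hormone Igf1 (-5.26), Igfbp5 (-4.92), Gas6 (-3.11) and Areg (-2.72) were lower.

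Axon guidance genes, which steer growth cones by attraction and repulsion, counted 7 up and 13 down of 43 (16.3% and 30.2%), of which 3 and 2 were tested through the higher line alone. Among netrin receptors the direction was opposed, with Unc5b lower (-3.32) and Unc5c higher, at 0.0187, 0.0469 and 0.0192 TPM in Q7-C and 3.00, 3.71 and 3.50 TPM in Q111-C (log2 fold change 6.60, SE 0.348, adjusted p = 3.2e-05). Ntn4, a netrin, fell (-4.23). Semaphorins were divided, as Sema5b fell (-5.92) and Sema3e rose (5.61) together with the receptor Nrp1 (1.54). Of 13 ephrins and Eph receptors, 4 fell and none rose, Epha4 (-3.29) by the most. The list had 9 up and 7 down on log2(TPM + 0.5), so its lean was the reverse.

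Genes of neuronal excitability that passed moved in both directions. Of 22 neurotransmitter receptors and transporters tested out of 87 named, 3 rose and 6 fell, of which 2 and 2 were tested through the higher line alone, and on log2(TPM + 0.5) 3 rose and 3 fell. Grik5, a kainate receptor subunit, was at 21.5, 24.1 and 25.2 TPM in Q7-C and 7.28, 7.96 and 7.40 TPM in Q111-C (log2 fold change -1.95, SE 0.121, adjusted p = 5.83e-05). Adra1d, an alpha-1 adrenergic receptor, was at 8.38, 10.8 and 12.4 TPM in Q7-C and 0.399, 0.180 and 0.110 TPM in Q111-C (log2 fold change -5.81, SE 0.456, adjusted p = 0.000151), and the purinergic receptor P2ry2 (-4.59) fell. Among 27 channels, 8 rose and 6 fell, of which 5 and 5 were tested through the higher line alone. Scn3a, a voltage-gated sodium channel of embryonic brain, was at 0.0599, 0.0499 and 0.0134 TPM in Q7-C and 5.96, 7.51 and 7.88 TPM in Q111-C (log2 fold change 7.06, SE 0.514, adjusted p = 0.00011). The inward rectifier Kcnj2 (6.69) rose, and Kcnk5 and Kcna4 were at least 42.3-fold and 25.2-fold higher. Cacna1a, the P/Q-type calcium channel, was at 3.70, 5.55 and 5.97 TPM in Q7-C and 1.06, 0.940 and 0.939 TPM in Q111-C (log2 fold change -2.65, SE 0.141, adjusted p = 3.21e-05), and Kcnf1 (-5.73), Kcnq5 (-3.86) and Kcnk10 (-3.25) fell.

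Enzymes of cyclic nucleotide and calcium signalling counted 7 up and 7 down of 46 (15.2% each, against 8.28% and 8.04% of all genes). Of the 7 up, 3 were tested through Q111-C alone, which leaves 4 up and 7 down. The adenylyl cyclases Adcy7 (3.39) and Adcy3 (2.55) and the cyclic GMP phosphodiesterase Pde5a (3.05) rose, and Pde9a was at least 14.4-fold higher. Prkar1b (-2.92), a regulatory subunit of protein kinase A, Prkg2 (-2.09) and Pde3b (-2.90) fell. KEGG synapse pathways gave 10 up and 4 down of 60 (23.3% DEGs) for the glutamatergic, 9 up and 5 down of 68 (20.6%) for the cholinergic, 6 up and 5 down of 42 (26.2%, and 7 and 2 on log2(TPM + 0.5)) for the GABAergic and 6 up and 7 down of 90 (14.4%) for the dopaminergic synapse, against 16.3% of all genes, many of them signalling genes that these pathways share. Long-term potentiation had 1 up and 1 down of 46 (4.35%), below that share.

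Xenobiotic enzymes held changes in opposite directions within families. Cyp1a1, a cytochrome P450 that the aryl hydrocarbon receptor induces, was at 2.94, 3.94 and 3.93 TPM in Q7-C and 0, 0 and 0 TPM in Q111-C, at least 35.4-fold lower. Cyp1b1, a P450 that the same receptor controls, was at 2.85, 5.44 and 5.52 TPM in Q7-C and 104, 116 and 130.1 TPM in Q111-C (log2 fold change 4.40, SE 0.185, adjusted p = 1.66e-05). No library of one line overlapped the other line for either gene. The promoters of both are shown because both hold GCGTG, the core that this receptor binds, in the window before the start. On GRCm38.p6 the 250 bases lie at chr9:57697363-57697612 on the plus strand for Cyp1a1 and at chr17:79715062-79715311 on the minus strand for Cyp1b1, read in the direction of the gene, with the match in capitals (as CACGC, its reverse complement, in Cyp1b1).
Cyp1a1 promoter: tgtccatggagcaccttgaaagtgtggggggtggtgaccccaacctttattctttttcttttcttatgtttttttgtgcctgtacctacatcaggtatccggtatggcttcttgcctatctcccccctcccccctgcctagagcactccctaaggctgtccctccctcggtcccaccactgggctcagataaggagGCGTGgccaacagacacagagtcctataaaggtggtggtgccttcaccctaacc
Cyp1b1 promoter: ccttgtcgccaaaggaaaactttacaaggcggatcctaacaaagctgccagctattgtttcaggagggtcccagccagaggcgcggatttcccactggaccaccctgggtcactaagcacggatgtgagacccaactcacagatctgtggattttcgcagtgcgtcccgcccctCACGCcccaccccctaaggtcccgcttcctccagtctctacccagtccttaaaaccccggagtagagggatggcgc
The match lies 54 bases before the start in Cyp1a1 and 76 bases before it in Cyp1b1, and GCGTG was found on either strand in 32.4% of the 32851 promoters of 300 bases and in 52.7% of the 10010 of genes compared, so these letters are common.

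Of 53 xenobiotic and antioxidant genes, 6 rose and 8 fell (11.3% and 15.1%, against 8.28% and 8.04% of all genes). In each direction 1 was tested through the higher line alone. The alpha-class glutathione transferases Gsta4, at 276, 266 and 227 TPM in Q7-C and 40.7, 36.2 and 38.1 TPM in Q111-C (log2 fold change -3.08, SE 0.213, adjusted p = 8.96e-05), and Gsta1 (-3.42) were lower, as was the aldehyde dehydrogenase Aldh3a1 (-4.73), while the microsomal transferases Mgst2 (2.30) and Mgst1 (1.90) and the peroxidase Gpx7 (5.49) were higher. Near-identical Gsta genes may share reads. The KEGG pathways of these enzymes were divided as well, with 6 up and 10 down of 32 for xenobiotics and 4 up and 5 down of 18 (6 and 3 on log2(TPM + 0.5)) for retinol. Drug metabolism by cytochrome P450 had 4 up and 6 down of 25, and 7 up without Q7-C replicate 1. In the retinoid list 5 of 14 genes fell, 3 of them tested through Q7-C alone. Crabp1 was at 237, 142 and 141 TPM in Q7-C and 3.17, 2.89 and 1.06 TPM in Q111-C (log2 fold change -6.57, SE 0.570, adjusted p = 0.000232). Aldh1a3, which makes retinoic acid, fell (-3.37), and Cyp26a1, which degrades it, was at least 10.2-fold lower. Stra6, the retinol importer, was lower (-1.91, called in 3 of the 6 fits that left out a library, but called higher between the treated lines at 2.63), and Dhrs3, which turns retinal back to retinol, was higher (1.99). On log2(TPM + 0.5) the downregulated xenobiotic genes numbered 5 and the retinoid genes 3, with 3 retinoid genes up.

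Of 47 lipid storage and signalling genes, 8 rose and 3 fell, 23.4% DEGs against 16.3% of all genes. Of the 8 that rose, 3 were tested through Q111-C alone, which leaves 5 up and 3 down. On log2(TPM + 0.5), a scale on which all genes shift upward, 15 rose and 1 fell, and between the treated lines 8 were called in each direction. Pparg, the regulator of fat cell genes, was at 11.8, 13.9 and 13.5 TPM in Q7-C and 48.9, 49.4 and 46.0 TPM in Q111-C (log2 fold change 1.57, SE 0.121, adjusted p = 0.000142). Its targets Lpl, the lipoprotein lipase, at 0.130, 0.117 and 0.0988 TPM in Q7-C and 7.47, 6.75 and 6.85 TPM in Q111-C (log2 fold change 5.58, SE 0.254, adjusted p = 1.86e-05), and Angptl4, an inhibitor of that lipase, at 1.38, 1.06 and 1.16 TPM in Q7-C and 72.4, 71.3 and 70.0 TPM in Q111-C (log2 fold change 5.55, SE 0.253, adjusted p = 1.86e-05), rose by more. Fabp4 was at least 8.55-fold higher, while Fabp5 fell (-1.95). Of 45 genes of the KEGG PPAR pathway 8 rose and 3 fell. In cholesterol synthesis and transport 3 of 30 rose, namely the exporters Abca1 (1.51) and Abcg1 (5.36) and the lipogenic factor Srebf1 (1.49), and the 2 that fell (Tm7sf2 -1.19 and Ebp -1.02) were not called without Q7-C replicate 1. The peroxisome pathway gave 4 up and none down of 68, 5.88% DEGs against 16.3% of all genes, with Phyh (5.17), which oxidizes branched fatty acids, in front. Of 32 glycolysis genes 4 rose and 3 fell (12.5% and 9.38%, near the shares of all genes). The neuronal glucose transporter Slc2a3 was at 7.10, 10.3 and 10.1 TPM in Q7-C and 1.20, 0.965 and 0.942 TPM in Q111-C (log2 fold change -3.42, SE 0.162, adjusted p = 2.2e-05), and Slc2a1 (-1.05) and the muscle enolase Eno3 (-1.36) fell. Ldhb (2.26) and Pdk1, a kinase that restrains pyruvate dehydrogenase, at 1.52, 2.45 and 2.52 TPM in Q7-C and 13.2, 14.7 and 14.5 TPM in Q111-C (log2 fold change 2.43, SE 0.130, adjusted p = 3.26e-05), rose.

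Of 60 cell cycle genes, 2 rose and 5 fell, 8.33% down against 8.04% of all genes. Ccnd1, which encodes the G1 cyclin D1, was at 132, 213 and 239 TPM in Q7-C and 29.1, 30.6 and 26.4 TPM in Q111-C (log2 fold change -3.03, SE 0.138, adjusted p = 1.86e-05). Ccnd2 (-2.05), Gadd45a (-1.91), Cdkn1a (-1.42, but called higher between the treated lines at 1.97) and Myc (-1.04) were lower and Cdkn1c (2.11) and Ccnb2 (1.21) higher, but 53 of the 60 cell cycle genes were not called, and the list's share of DEGs (11.7%) lay below that of all genes. Of 28 early-response factors, 9 (32.1%) fell, 1 of them tested through Q7-C alone, and 2 rose. Klf4 was at 47.1, 87.9 and 92.7 TPM in Q7-C and 18.4, 18.4 and 16.0 TPM in Q111-C (log2 fold change -2.37, SE 0.169, adjusted p = 0.000102). Dusp4 (-3.32), a phosphatase of ERK kinases, Spry1 (-2.59), an inhibitor of receptor signalling, and the transcription factor Etv4 (-2.13) fell as well, and Spry2, a relative of Spry1, rose (1.13), whereas the AP-1 subunits Fos, Fosl1, Fosl2, Jun, Junb and Jund were not called. On log2(TPM + 0.5) 5 of the 28 were downregulated and 4 upregulated. Of 37 genes of the unfolded protein and heat shock responses, 7 (18.9%) fell and none rose. Cryab, a small heat shock protein of muscle and glia, was at 382, 261 and 257 TPM in Q7-C and 46.1, 41.2 and 37.8 TPM in Q111-C (log2 fold change -3.21, SE 0.310, adjusted p = 0.000367). Ddit3, the CHOP factor of the integrated stress response, was at 132, 109 and 95.8 TPM in Q7-C and 51.6, 47.7 and 45.0 TPM in Q111-C (log2 fold change -1.57, SE 0.245, adjusted p = 0.00304). Trib3 (-1.85), Chac1 (-1.62) and Atf5 (-1.25), which lie in the same response, and Hspb1 (-1.66) fell, while Atf4, Hspa5 and Xbp1 were not called. KEGG p53 signalling had 8 up and 9 down of 68.

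Core cellular machinery was little changed at the 2-fold minimum. None of 44 genes of aminoacyl-tRNA biosynthesis was called, and the counts were 0 up and 2 down of 129 for the spliceosome, 0 up and 1 down of 35 for DNA replication and 1 up and 5 down of 146 (2 and 3 on log2(TPM + 0.5)) for RNA transport. Of 83 cytosolic ribosomal protein genes, Rpl26 was called (-1.39), and the median was -0.44. The KEGG ribosome pathway, which adds mitochondrial ribosomal proteins, had 1 up and 4 down of 129, and none down without Q7-C replicate 1. Among abundant genes a caution applies to pseudogene copies of ribosomal proteins, chosen after their values were seen: Rps2-ps13 was at 5946, 4345 and 4196 TPM in Q7-C and 199, 184 and 127 TPM in Q111-C (log2 fold change -5.19), while its parent Rps2 was at 1979, 1489 and 1468 TPM in Q7-C and 1917, 1851 and 1860.2 TPM in Q111-C (-0.17) and was not called. Such copies can share reads with the parent. KEGG Huntington disease, whose genes are largely those of oxidative phosphorylation, had 5 up and 9 down of 156 (7 and 3 on log2(TPM + 0.5)), a share below that of all genes. The KEGG lysosome pathway had 12 up (11.2%, against 8.28% of all genes) and 2 down of 107, and its share of DEGs (13.1%) lay below that of all genes. It had 21 up on log2(TPM + 0.5), a scale on which all genes shift upward. Ctsh, a cathepsin, was at 0.293, 0.332 and 0.347 TPM in Q7-C and 17.6, 18.9 and 18.0 TPM in Q111-C (log2 fold change 5.46, SE 0.150, adjusted p = 5.56e-06), and Tfeb, a regulator of lysosomal genes, fell (-1.25).

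Several immune pathways, counted with any interferon-response genes they hold, had more DEGs than the 16.3% of all genes. Cytokine-cytokine receptor interaction had 32 up and 12 down of 107 (41.1%). Il1rl1, the receptor for interleukin-33, was at 35.9, 54.4 and 53.9 TPM in Q7-C and 299, 379 and 353 TPM in Q111-C (log2 fold change 2.55, SE 0.118, adjusted p = 1.97e-05). Ackr3 (3.37), a chemokine scavenger, Il1rn (4.52), the interleukin-1 receptor antagonist, and Ltbr also rose. Complement and coagulation had 9 up and 3 down of 27, with Procr (2.77), the endothelial protein C receptor, and Thbd, at 0.342, 0.635 and 0.310 TPM in Q7-C and 77.6, 86.0 and 89.0 TPM in Q111-C (log2 fold change 7.32, SE 0.296, adjusted p = 1.42e-05). Cd55, a shield against complement, was at least 26.1-fold higher. NF-kappa B signalling had 12 up and 7 down of 64 (16 and 4 on log2(TPM + 0.5)), including Traf1 (3.63). Apoptosis, with 13 up and 5 down of 112 (18 and 3 on that scale), had 16.1% DEGs, about the share of all genes. Stat6, the interleukin-4 transducer, was at 0.824, 0.861 and 0.904 TPM in Q7-C and 71.4, 75.5 and 73.6 TPM in Q111-C (log2 fold change 6.07, SE 0.154, adjusted p = 5.56e-06), and Maf (3.24) and Stat3 (1.23) were the other leading genes of the inflammatory bowel disease pathway (8 up, 1 down of 26). Antigen processing had 12 up and 2 down of 45. Several small pathways of transplant and autoimmune disease, such as allograft rejection (7 up, 2 down of 16), were led by the class I gene H2-D1 (1.29), the class II chaperone H2-DMb1 (3.92) and the co-stimulator Cd80 (2.76). The list of interferon-response genes itself counted 26 up of 34 (76.5%), 3 of them tested through Q111-C alone. Ptges (4.97) and Ptgis (2.35), which make prostaglandin E and prostacyclin, rose, and Cbr2 (-2.84), a carbonyl reductase, fell.

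The position of the genes was also compared. Chromosome 17 had 34 upregulated and 115 downregulated DEGs among 757 genes (15.2% down), and a median log2 fold change of -0.52, or -0.17 on log2(TPM + 0.5). Relative to the median of all genes this was -0.51, with a range of -0.53 to -0.47 over the fits that left out 1 library. The 3 Q111-C libraries had medians of -0.42, -0.44 and -0.43 against the Q7-C mean, the 3 Q7-C libraries 0.07, -0.03 and -0.06, so the groups were apart. The shift ran along the chromosome, as 607 of 757 genes (80.2%) had a negative fold change and each of the 9 windows of 10 Mb with at least 20 genes had a median below 0, from -0.69 to -0.37. Over the genome 113 of 227 such windows (49.8%) lay below 0, and 7 of the 10 lowest were on chromosome 17. Between the treated lines the relative median was -0.56. Chromosome 19 was lower by less (27 up, 64 down of 538, relative median -0.26) and chromosome 14 was higher (57 up, 21 down of 501, relative median 0.25). Members of the lists lie on these chromosomes too, among them Ezr (-2.06) and Srf on chromosome 17.

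**Figure D5:**
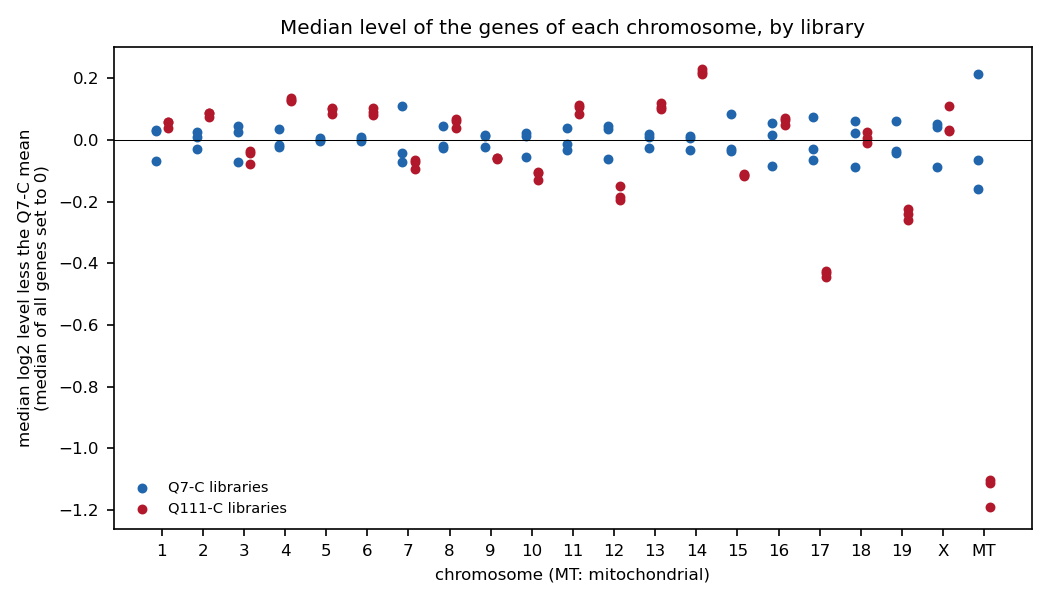
Median over the genes of each chromosome of the log2 level less the Q7-C mean, with the median of all genes set to 0 (y axis), with 1 point for each Q7-C library (blue) and each Q111-C library (red). The Q111-C points of chromosome 17 lie at -0.44 to -0.42 and those of the mitochondrial genome at -1.19 to -1.10, apart from the Q7-C points.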

How the data were processed

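Poly(A) RNA of nontreated STHdhQ7 and STHdhQ111 cells was sequenced on an Illumina NovaSeq instrument, paired-end, from stranded TruSeq libraries, 3 per line. The submitters' processing notes name cutadapt, FastQC, HISAT2, StringTie, DESeq2 and edgeR and the build GRCm38. The authors deposited, for each library, estimated counts per gene and TPM, with KEGG pathway names per gene. The TPM of the genes compared summed to 715500 to 718700 in Q7-C and 687100 to 691000 in Q111-C, so the scale also covers rows not used here. StringTie's estimated counts depend on transcript models and, for near-identical genes, on how reads were divided.

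A gene was kept where 3 or more libraries of the 6 reached 0.5 TPM. Estimated counts were rounded, scaled by TMM (factors 0.8859 to 1.061) and tested with edgeR 4.0.16 (quasi-likelihood, R 4.3.3), with Benjamini-Hochberg adjustment over the 14822 genes, after the procedure had been tested on simulated counts. A DEG had an adjusted p below 0.05 and a change of at least 2-fold. The SE beside a fold change was derived from the test, as the absolute log2 fold change over the square root of its F statistic. DESeq2 1.42.0 and limma 3.58.1 served as alternatives. Every adjusted p in the text is from this edgeR fit unless another is named, every fold change is on its log2 scale, and values per library are TPM in the order of replicates 1, 2 and 3. A gene with at most 12 estimated counts (3 read pairs, if a pair gave 4 counts) in each library of a line was taken as not detected there. Its fold is given as a lower bound, computed against that floor in each library. Intervals and floors cover counting error only.

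Genes were named by a rule: in each list up to 4 called members per direction with the largest change and at least 1 TPM, the 10 largest changes per direction at 10 TPM or more, the 5 most abundant DEGs and the 5 highest genes at the floor per direction, up to 4 DEGs with the smallest adjusted p in each pathway, and any member a sentence on a list needed. The 10 largest changes left out Gm and Rik names, same-strand overlaps and genes whose libraries overlapped between lines. Names outside this rule are marked as chosen after their values were seen. The gene lists, the pathways and the comparison itself were chosen with earlier results of these data known. The pathways are those of a chosen list and the 8 with the highest share of DEGs per direction among pathways with at least 15 genes tested. Drd1, Drd2, Rbfox3 and Nefl were not analysed here. A result on a patterning factor is not reported here. Promoters are from RefSeq on GRCm38.p6, and a comparison of promoter motifs between called and other genes was void because 67.5% of the genes compared had a promoter there.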

Additional observations from a re-analysis of the deposited data

How the results depend on the processing

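All alternatives except the counts per list, and the medians per chromosome, without Q7-C replicate 1, which were chosen after seeing the data, were planned. The number of DEGs, 2418, ranged from 1887 (limma on log2(TPM + 1)) to 2767 (no filter on low values), with 2288 with all 12 libraries in one fit and 2572 with DESeq2. Limma called 769 genes down and 1585 up on log2(TPM + 0.5), 67.3% up against 50.7%, and 607 down and 1280 up on log2(TPM + 1), and other settings gave 841 to 1398 down. Leaving out 1 library gave 2048 to 2557 DEGs, 1033 to 1338 up and 1015 to 1308 down. None of the 2418 was called in the opposite direction in any alternative. The deviations of same-numbered libraries correlated at 0.205, 0.016 and 0.164. Replicates 1 and 3 of each line correlated best with the same number, and replicate 2 of each line correlated better with another number. Whether the replicate numbers mark a shared batch cannot be told from these values. With a replicate block 2368 genes were DEGs, 1228 up and 1140 down, and 2 named genes (Ebp and Xist) lost their call. Of the 280 called genes in the text, 249 kept the call in every alternative. Lost without Q7-C replicate 1 were Atf5, Ebp, Gm10925, Myc, Prrx2, Rpl26, Slc2a1, Srf, Tm7sf2 and mt-Atp6, with absolute log2 fold changes of 0.70 to 1.00. Without one or more of the other libraries Htt, Penk, Ppp1r1b, Stra6, Fabp7, Twist1, Eno3, mt-Nd6, Xist and some of the former were lost, with adjusted p up to 0.139. Of 38 lists, 13 changed the sign of the median on log2(TPM + 0.5), and relative to all genes 1 did (medium spiny neuron genes). Of 262 counts per list or pathway and direction, 156 stayed within 1.5 times in every alternative. Depth limits genes near 0.5 TPM, where a library holds few read pairs, and with 3 libraries per line single outlying values were not tested.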

Other observations

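Several abundant genes outside the gene lists also differed, and those named here were chosen after their values were seen. Aebp1, a collagen-binding secreted protein, was at 3.47, 4.14 and 2.64 TPM in Q7-C and 420.1, 426 and 432 TPM in Q111-C (log2 fold change 6.63, SE 0.265, adjusted p = 1.42e-05). Cavin2, a coat protein of caveolae, was at 3.6, 6.85 and 7.92 TPM in Q7-C and 180.5, 166 and 193 TPM in Q111-C (log2 fold change 4.62, SE 0.206, adjusted p = 1.86e-05). Both lines were apart for these genes, as they were for those that follow. Lower in Q111-C were Fhl1, a LIM-domain protein of muscle, at 150.4, 219 and 234 TPM in Q7-C and 7.58, 7.12 and 2.55 TPM in Q111-C (log2 fold change -5.41, SE 0.439, adjusted p = 0.000173), and Aqp1, a water channel, at 144, 203 and 192 TPM in Q7-C and 24.8, 27.3 and 23.3 TPM in Q111-C (log2 fold change -3.13, SE 0.110, adjusted p = 9.68e-06). Prelp, a leucine-rich proteoglycan, fell (-3.94) and so did its relative Fmod (-3.12), opposite to Bgn, Dcn and Aspn of the same family. Tubulin isotypes moved in both directions: Tuba4a was at 6.02, 7.16 and 6.58 TPM in Q7-C and 74.4, 69.3 and 69.8 TPM in Q111-C (log2 fold change 3.12, SE 0.135, adjusted p = 1.78e-05), and Tubb2b, a beta-tubulin of young neurons, was at 132, 145 and 137 TPM in Q7-C and 41.6, 39.7 and 39.1 TPM in Q111-C (log2 fold change -2.10, SE 0.138, adjusted p = 7.24e-05), the direction of Tubb3. Perp, a p53 target in desmosomes, fell (-2.21).

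Enzymes of nucleotide handling, also chosen after their values were seen, differed. Entpd2, which hydrolyses ATP, was at 13.3, 11.0 and 11.2 TPM in Q7-C and 0.732, 0.695 and 0.670 TPM in Q111-C (log2 fold change -4.40, SE 0.278, adjusted p = 6.18e-05). Nt5e, which makes adenosine from AMP, was at 0.624, 1.67 and 1.68 TPM in Q7-C and 7.26, 6.42 and 7.13 TPM in Q111-C (log2 fold change 2.14, SE 0.272, adjusted p = 0.00119), and Enpp1 (2.53) and the AMP deaminase Ampd3 (3.34) rose with it. Slc38a1, a neuronal glutamine transporter, was at 11.7, 19.6 and 23.4 TPM in Q7-C and 1.74, 2.18 and 1.75 TPM in Q111-C (log2 fold change -3.54, SE 0.178, adjusted p = 2.65e-05), and the lipoprotein and reelin receptor Vldlr was lower (-2.32). In the KEGG pathway of mucin O-glycans 5 of 18 genes (27.8%) rose and 1 (5.56%) fell, with Gcnt4 at 4.75. In hedgehog signalling 3 of 38 (7.89%) rose and 7 (18.4%) fell. Over all genes 8.28% rose and 8.04% fell. Of 5 sex-linked genes tested 1 was called, Xist, which the inactive X chromosome expresses, at 19.0, 48.9 and 68.2 TPM in Q7-C and 25.4, 25.7 and 27.7 TPM in Q111-C (log2 fold change -1.02, SE 0.311, adjusted p = 0.0465), with overlapping libraries and a call kept in 1 of the 6 fits that left out a library. The mesenchymal filament gene Des rose (2.20), at 0.975, 1.40 and 1.28 TPM in Q7-C and 10.5, 5.14 and 4.99 TPM in Q111-C, and 1 Q111-C library lay well above the others.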
